A study of Mus musculus with 72 samples.

Results

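The 10 genes of the mature B cell followed here, 4 that act at or just under the cell surface (Cr2, Fcer2a, Fcrl1 and Bank1) and 6 that encode transcription factors or a coactivator (Pax5, Ebf1, Pou2f2, Pou2af1, Spib and Bcl11a), were measured in the blood of irradiated mice. They were found by gene name on the arrays, each through its brightest detected probe. All 10 were on the array, and 9 of them were among the 10863 genes that passed the filters on low and unvarying signal. Pax5 did not pass, because its probe was not well above background on 26.8% of the 56 arrays of days 1 and 7. It was tested with a filter applied within groups over 19991 genes. RNA came from the peripheral blood of male C57BL/6 mice aged 8 to 10 weeks, 1 mouse per array, on 72 arrays. Controls were sham-irradiated. Neutron doses were 0.25 Gy (written N0.25) and 1 Gy (N1), and x-ray doses were 1 Gy (X1) and 4 Gy (X4). At day 1 there were 5 controls, 6 N0.25, 6 N1, 6 X1 and 5 X4 mice. At day 7 these groups held 6, 5, 6, 5 and 6 mice. Day 3 had 5 controls, 6 N0.25 and 5 X1 mice. Blood is a mixture of cells, so that fewer B cells and less RNA per B cell cannot be told apart in these values. The paper reports total blood counts in the normal range and no significant change in white cell makeup or cell death after irradiation. B cell numbers were not tested here.

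B cells arise in the bone marrow under Ebf1 and Pax5, which set and hold B cell identity, and then circulate as mature cells waiting for antigen. On the mature cell, Cr2 (CD21) binds complement fragments on antigen and lowers the threshold of the antigen receptor, Fcer2a (CD23) is the low-affinity receptor for IgE, Fcrl1 is an Fc receptor-like protein of B cells, and Bank1 is an adaptor of B cell receptor signalling. Pou2f2 (Oct-2) binds the octamer element of immunoglobulin promoters and Pou2af1 (OBF-1) is its B cell coactivator. Spib is an Ets family factor of mature B cells and plasmacytoid dendritic cells, and Bcl11a is a zinc finger factor needed for B cell development. Circulating lymphocytes are among the most radiosensitive cells of the body.

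The array measured each gene through a short stretch of its transcript, and the values below belong to that stretch alone. The first 30 of the 60 bases of each probe used are printed, 5′ to 3′, because they say what was measured, with the position of the whole probe on mouse build mm9 as the array files give it. The files give no exon or untranslated region for a probe.
Cr2 (chr1:196965532-196965591, minus strand): tggcctacagattgttcttgtgatatttca
Fcer2a (chr8:3682343-3682402, minus strand): atctgggatgagtcctcccatcaagtttgc
Fcrl1 (chr3:87195973-87196032, plus strand): tacttttgataactgacggacattaaagtt
Bank1 (chr3:135716867-135716926, minus strand): aagatggagactcatagcattctctgaaaa
Pax5 (chr4:44658421-44658480, minus strand): gtttgagagacagcactactctgacatctt
Ebf1 (chr11:44818438-44818497, plus strand): agggtgttggttaaagttgtaacccccgag
Pou2f2 (chr7:25877735-25877794, minus strand): tcgtcttcttcatcctcatcatcctccacg
Pou2af1 (chr9:51048121-51048180, plus strand): gcatccaaacagatttcctccagagcctca
Spib (chr7:51781392-51781451, minus strand): ccatgtggtcaaggctaaactgtactaaat
Bcl11a (chr11:24073114-24073173, plus strand): cctgaccccttgtttctatacattctatgt

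The members were also compared for short motifs in the 250 bases before and 50 bases after the transcription start, as RefSeq gives them on GRCm38.p6, searched on both strands in 13 promoter windows of the 10 members. The octamer ATTTGCAT, the element that Oct-2 binds, was in none of the members' windows and in 1.74% of all 32851 promoters. The letters AGNGGAAGT, searched as an Ets-like motif for Spib, were in none of them and in 2.41% of all promoters. The letters CCCNNGGG, searched as an Ebf1-like motif, were in the windows of 2 members, Bank1 and Spib, and in 13.7% of all promoters. The 250 upstream bases of these members are shown because they hold those matches, which are in capitals. In Spib, 2 matches overlap.
Bank1 (chr3:136326067-136326316, minus strand): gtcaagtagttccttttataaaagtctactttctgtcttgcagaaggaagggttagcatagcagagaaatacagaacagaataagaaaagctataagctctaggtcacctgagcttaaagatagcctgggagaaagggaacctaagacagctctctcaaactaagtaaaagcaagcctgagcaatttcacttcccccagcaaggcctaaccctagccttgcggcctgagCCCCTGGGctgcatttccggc
Spib (chr7:44532072-44532321, minus strand): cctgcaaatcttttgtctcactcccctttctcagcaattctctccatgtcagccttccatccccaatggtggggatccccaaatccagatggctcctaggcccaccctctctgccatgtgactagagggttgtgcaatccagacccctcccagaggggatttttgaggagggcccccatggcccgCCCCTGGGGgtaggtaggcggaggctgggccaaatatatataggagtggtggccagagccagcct

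Levels are log2 intensities relative to the median of the detected probes of the same array, which is 0, and a fold change is a difference of mean log2 levels. A gene was called where limma gave p below 0.001 and a Benjamini-Hochberg adjusted p below 0.05 over all genes tested. Overlap of groups was not counted over all genes, so a lack of overlap describes the values of the named gene alone. Between 40.2% and 67.3% of probes were well above background on an array. Cd79a and Ms4a1, which mark B cells, were well above background on all 72 arrays. Genes of the liver were also found. The mean level of a hepatocyte list ran from -1.58 to 5.78 in the controls of day 1 and from -5.28 to -3.36 in those of day 7. In the X4 mice it ran from 6.72 to 7.92 at day 1. Arrays were scanned on 7 dates, and neither x-ray dose shared a date with controls at any day, so that for these exposures scan date and exposure cannot be told apart. One array of N0.25 at day 1, replicate 5, stood apart. Its hepatocyte list had a mean level of 8.22, its T cell list 1.19 against 2.57 to 3.50 in the other mice of its group, and it was the lowest of its group for all 10 members.

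Fcer2a and Cr2 fell furthest of the 9 members tested at day 1 after X4. Fcer2a had log2 levels of 2.32, 1.91, 2.50, 1.91 and 2.71 in the 5 controls of day 1. After X4 its levels were -4.24, -5.10, -4.13, -4.00 and -3.97, and 3 of these 5 arrays were well above background. The groups lay far apart, with a log2 fold change of -6.56 ± 0.27 (SE), or 94.1-fold lower, and an adjusted p of 3e-08 in limma. Cr2 had levels of 2.97, 2.99, 3.01, 2.39 and 2.64 in the same controls and of -2.58, -3.01, -3.02, -2.63 and -2.53 after X4. It was 47.0-fold lower (log2 fold change -5.56 ± 0.21, limma adjusted p = 3e-08), again with no overlap. Fcrl1 was 18.3-fold lower (log2 fold change -4.19 ± 0.43), with 3 of 5 irradiated arrays above background, and its irradiated mice spread from -4.77 to -2.25. Bank1 had levels of 3.20, 2.88, 2.97, 2.35 and 2.93 in controls and -1.57, -1.48, -0.36, -1.33 and -0.44 after X4, and was 15.0-fold lower. All 4 surface genes were called.

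After N1 the surface genes fell at day 1 in the same order at the top. Fcer2a ran from -2.53 to -0.71 with a median of -1.63 over 6 mice, and was 14.6-fold lower than the controls (log2 fold change -3.87 ± 0.31, limma adjusted p = 3.6e-05). Cr2 ran from -1.62 to 0.15 with a median of -0.68, and was 11.5-fold lower (log2 fold change -3.53 ± 0.30, limma adjusted p = 4.1e-05). Fcrl1 and Bank1 were 6.65-fold and 5.78-fold lower. No irradiated mouse overlapped the controls for any of the 4.

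**Figure D1:**
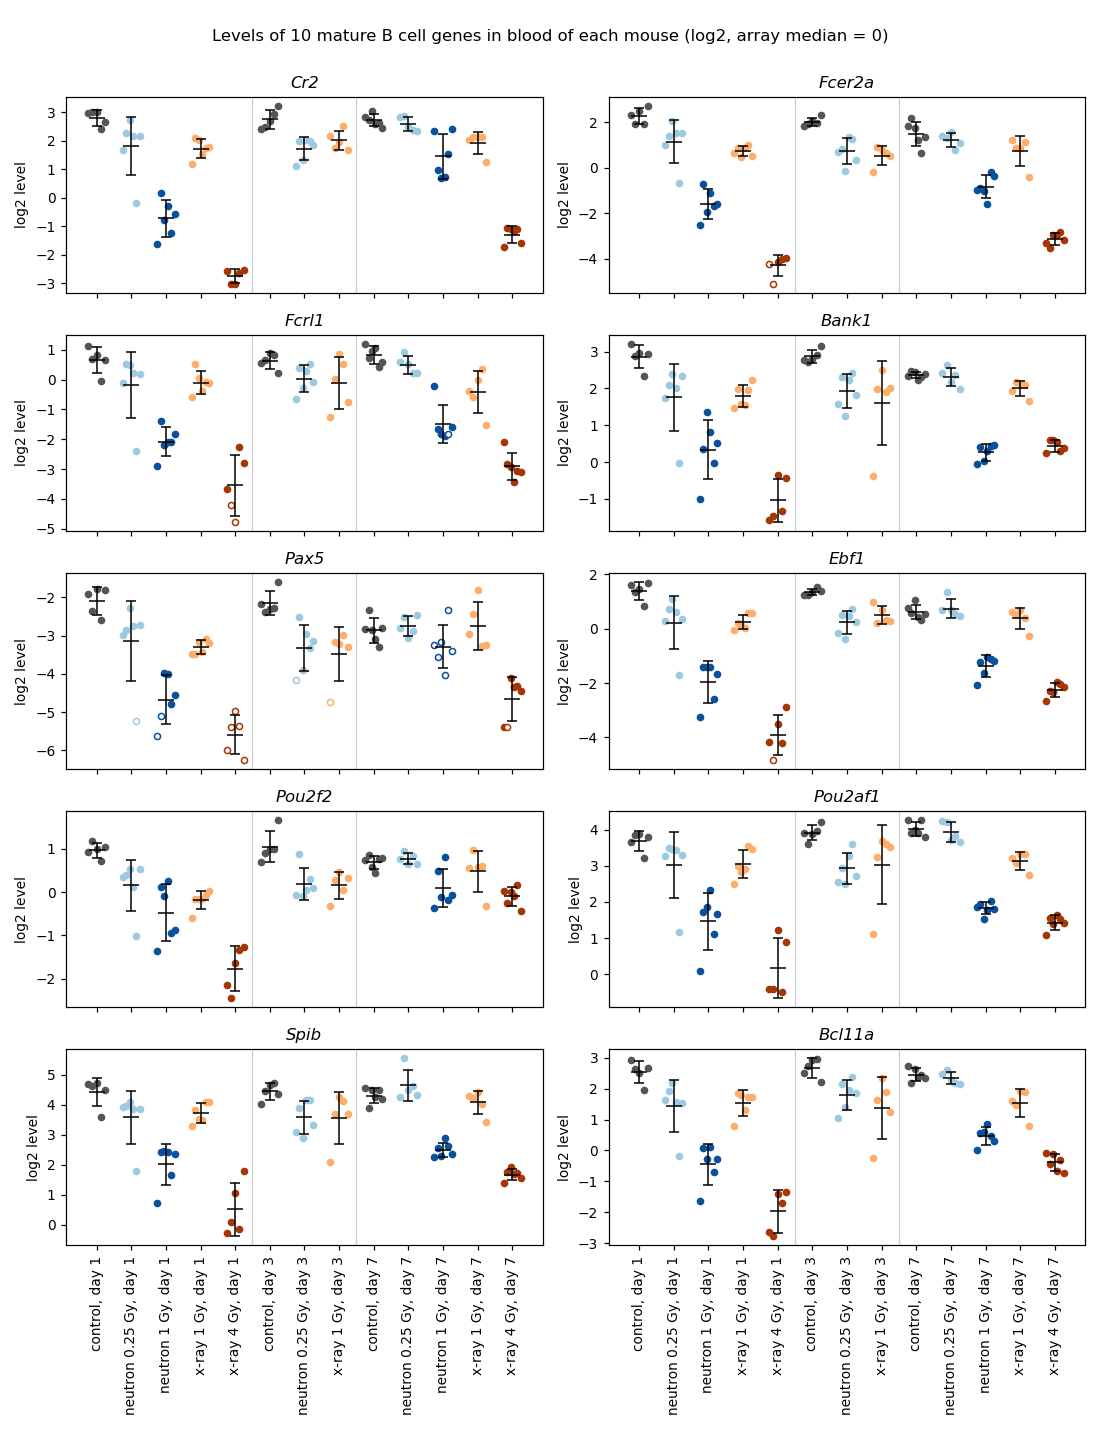
Log2 levels of the 10 genes in each mouse, relative to the median of the array's detected probes, by exposure and day, with bars at the mean ± SD. Filled points were well above background and open points were not. At day 1 the N1 and X4 mice lie below every control for all 10 genes, and Pax5 has only open points after X4.

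The transcription factors fell with them at day 1. Ebf1 had levels of 1.60, 1.34, 1.44, 0.84 and 1.67 in the controls and of -4.16, -4.82, -3.49, -4.19 and -2.89 after X4, with 4 of 5 arrays above background. It was 39.1-fold lower (log2 fold change -5.29 ± 0.33, limma adjusted p = 9.8e-07). Bcl11a was 22.8-fold lower and Spib 15.0-fold lower, Spib from control levels of 4.69, 4.63, 4.73, 3.58 and 4.51 to levels of -0.27, 0.11, 1.08, -0.13 and 1.79. Pou2af1 was 11.4-fold lower (log2 fold change -3.51 ± 0.35). Pou2f2 moved least of the 9, from 0.92, 1.17, 1.00, 0.71 and 1.05 in controls to -2.14, -2.45, -1.64, -1.34 and -1.26, or 6.66-fold lower (log2 fold change -2.74 ± 0.26, limma adjusted p = 1.1e-05). Pax5 was above background in all 5 controls and in 0 of 5 X4 mice, which gives only a bound, at least 6.21-fold lower, with an adjusted p of 1.7e-05 in limma with the group filter. With normexp background correction Pax5 was called in no comparison given here, and its log2 fold change after X4 was -0.19 at day 1. All 6 were called, without overlap of the groups.

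After N1 at day 1 the 6 factors were again all lower and called. Ebf1 had a log2 fold change of -3.33 ± 0.35, the largest of the 6. Bcl11a was 7.95-fold lower, Pax5 5.98-fold with 4 of 6 arrays above background, Spib 5.33-fold and Pou2af1 4.66-fold. Pou2f2 was 2.73-fold lower (log2 fold change -1.45 ± 0.29, limma adjusted p = 0.0029), with irradiated mice from -1.36 to 0.25 against 0.71 to 1.17 in controls. Of the calls in these comparisons that of Pou2f2 was the one most easily lost. Its adjusted p was 0.00932, 0.00904 and 0.0102 without control replicates 2, 3 and 5 and 0.00761 without neutron replicate 6, where p no longer passed 0.001.

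Of all genes tested, 18.6% were called lower after X4 and 10.5% after N1 at day 1, against 9 of the 9 members that passed the filters in each. With the group filter used for Pax5 the shares were 13.8% and 8.85%. The median log2 fold change of the 9 members was -4.19 after X4, with a median of 0.00 over all genes, and -2.73 after N1, with 0.05 over all genes. The hepatocyte list moved with the X4 exposure, as given above. With that list as a covariate all 9 members were called after X4, with a median of -3.77. All 9 were also called when the 5 irradiated arrays were set against the 3 controls with a positive list mean. No control reached the X4 arrays, with 5.78 at most against 6.72 at least, so neither setting can separate hepatocyte level from X4. For N1 these settings called 8 members each. Of the 6 neutron arrays 4 shared the controls' scan date, and within that date all 9 members were lower, with a median of -2.79. The size of the falls depended on the background correction: with normexp the members' median was -2.95 after X4 and -2.22 after N1, with 8 members called in each.

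**Figure D2:**
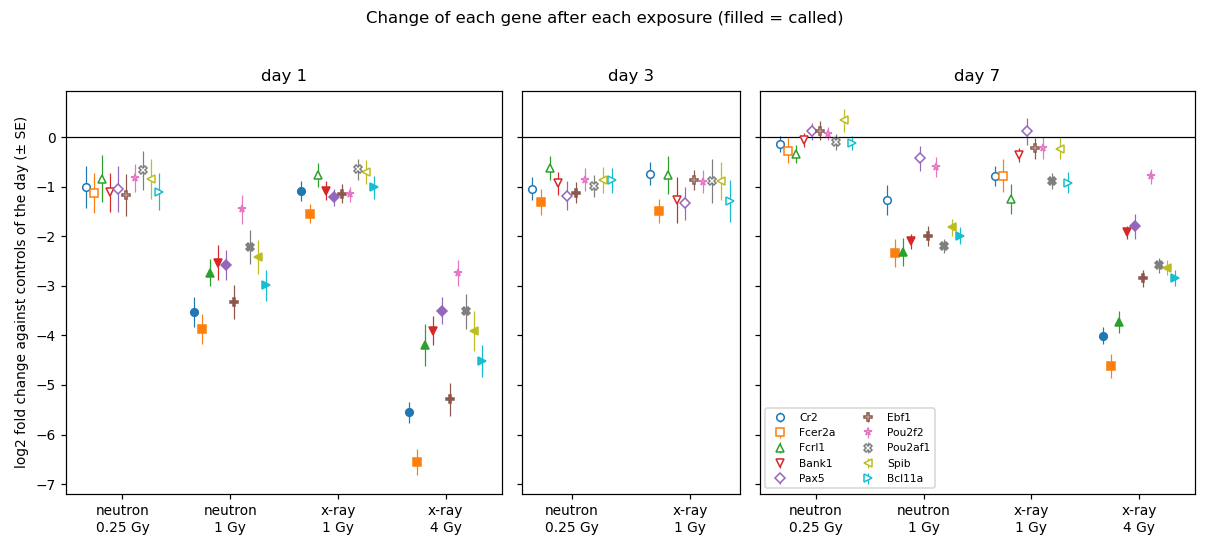
Log2 fold change of each gene against the controls of the same day, ± SE, for each exposure and day; filled points were called by limma. Day 1 after X4 reaches -6.56 for Fcer2a, and at day 7 after N0.25 no gene was called.

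The lower doses gave smaller differences at day 1. After X1, 6 of the 9 members were called lower, against 4.56% of all genes, and Pax5 was called with the group filter, where 3.23% of genes were. Fcer2a went from the control levels above to 0.63, 0.88, 0.48, 0.89, 0.99 and 0.52 (lowest 0.48, median 0.76, highest 0.99) and was 1.54 lower on the log2 scale (SE 0.19, limma adjusted p = 0.0013). Pou2f2 ran from -0.60 to 0.03 with a median of -0.15 and had a log2 fold change of -1.15 ± 0.15 (limma adjusted p = 0.0016). Cr2, Bank1, Ebf1, Bcl11a and Pax5 had log2 fold changes between -1.21 and -1.01 and were called, without overlap of the groups. Fcrl1, Pou2af1 and Spib had log2 fold changes of -0.76 ± 0.24, -0.64 ± 0.21 and -0.70 ± 0.24, overlapped the controls and were not called. These calls were sensitive: with scan date as a random block, or with normexp background correction, 0 members were called, with medians of -1.04 and -0.86 against -1.07 without these changes. That of Pax5 was lost in both, and with spike-in centring (-1.01). The hepatocyte list ran from 1.83 to 6.62 in these mice, and 5 members were called with it as a covariate.

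After N0.25 at day 1 no member was called, against 0.00921% of all genes called lower. Here 16.9% of all genes had an unadjusted p below 0.05 in limma, and 6 of the 9 members did. Log2 fold changes ran from -1.16 ± 0.42 for Ebf1 to -0.67 ± 0.39 for Pou2af1, with limma adjusted p from 0.22 to 0.39. The differences were smaller without replicate 5. For Cr2 its level was -0.17, and the other 5 mice ran from 1.68 to 2.71 against 2.39 to 3.01 in controls. Without it the median over the 9 members was -0.61, and still no member was called. For Pou2f2 the N0.25 mice ran from -1.02 to 0.54, against 0.71 to 1.17 in controls.

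Day 3 held the low-dose groups alone. After N0.25 Fcer2a ran from -0.16 to 1.33 with a median of 0.75, against 1.82, 1.92, 2.05, 1.97 and 2.31 in controls, and was called lower (log2 fold change -1.30 ± 0.27, limma adjusted p = 0.049). Ebf1 was also called (log2 fold change -1.12 ± 0.22, limma adjusted p = 0.049). The 2 calls stood against 0.626% of all genes. They were at the edge of the threshold, since leaving out 1 mouse at a time gave between 0 and 5 called members. Within the controls' scan date, which held 2 of the neutron mice, the median of the members was -0.53 against -0.93 over all mice.

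After X1 at day 3, Fcer2a had levels of -0.19, 0.91, 0.76, 0.66 and 0.51 and was the 1 member called (log2 fold change -1.49 ± 0.23, limma adjusted p = 0.033), against 0.414% of all genes. The median over the 9 members was -0.89. Replicate 1 was low for most members and not for all. Its Bank1 level was -0.38 against 1.91 to 2.49 in the other 4 mice and its Spib level 2.08 against 3.68 to 4.25, while its Ebf1 level, 0.97, was the highest of its group. Without this mouse 2 members were called and the median was -0.77. At day 3 the hepatocyte list ran from -4.75 to 5.29 in controls, 3.51 to 7.13 after N0.25 and -0.63 to 5.01 after X1, and with it as a covariate 0 members were called in either comparison, with medians of -0.86 in each.

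At day 7 the X4 group was still low in every member. Fcer2a ran from -3.55 to -2.84 with a median of -3.07 over 6 mice, against 0.65 to 2.17 with a median of 1.53 in 6 controls, and was 24.6-fold lower (log2 fold change -4.62 ± 0.24, limma adjusted p = 4e-08). Cr2 ran from -1.74 to -1.08 with a median of -1.13, against 2.45 to 3.04 with a median of 2.68, and was 16.0-fold lower (log2 fold change -4.00 ± 0.17, limma adjusted p = 9.1e-09). Fcrl1 was 13.3-fold lower, and Bank1, at 0.24 to 0.61 against 2.24 to 2.47, was 3.79-fold lower. Among the factors Ebf1 was 7.19-fold, Bcl11a 7.15-fold, Spib 6.20-fold, Pou2af1 6.01-fold and Pax5 3.48-fold lower. Pou2f2 was 1.73-fold lower (log2 fold change -0.79 ± 0.15, limma adjusted p = 0.0012), from -0.44 to 0.17 against 0.45 to 0.85. All 9 members that passed the filters were called, against 8.5% of all genes, and Pax5 was called where 7.15% were. In 3 of these 6 mice the mean level of the hepatocyte list was above 0. With that list as a covariate, or in the 3 mice whose level was like that of the controls, 8 members were called each, all but Pou2f2.

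After N1 at day 7 the surface genes other than Cr2 were called through their brightest probes. Fcer2a (-1.59 to -0.19, median -0.93), Fcrl1 (-1.88 to -0.20) and Bank1 (-0.06 to 0.46, median 0.36) were 5.03-fold, 4.98-fold and 4.29-fold lower than controls and called. Cr2, at 2.35, 0.97, 0.69, 0.72, 1.53 and 2.41 (lowest 0.69, median 1.25, highest 2.41), was just below every control, with a log2 fold change of -1.27 ± 0.31 (limma adjusted p = 0.0033), and missed the threshold on p. Its other probe was called in a fit over every probe that passed the group filter (log2 fold change -0.89 ± 0.18, limma adjusted p = 0.0013). Among the factors Pou2af1 was 4.58-fold lower (log2 fold change -2.19 ± 0.15, limma adjusted p = 4.7e-07), Ebf1 3.97-fold, Bcl11a 3.95-fold and Spib 3.52-fold, all called. Pou2f2 had a log2 fold change of -0.60 ± 0.20 (limma adjusted p = 0.023), overlapped the controls and was not called. Its other probe was called in the fit over probes (log2 fold change -0.660 ± 0.145, limma adjusted p = 0.0021). Only 1 of the 6 irradiated arrays shared the controls' scan date, and with scan date as a block Fcrl1 had a log2 fold change of -1.02 ± 0.31 (limma adjusted p = 0.023), Cr2 had -0.36 ± 0.35, and 6 members were called. Pax5 was above background in 0 of 6 irradiated mice and in all 6 controls. No fold is given for it.

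Thus 7 of 9 members were called lower at day 7 after N1, against 13.3% of all genes. The arrays of this group were dim. Their median intensity over all probes was 9.52 to 16.8 against 32.2 to 50.5 in the controls. Of their probes 40.2% to 50.3% were above background against 54.3% to 63.9%. Centring on the median of the detected probes sets aside a difference shared by whole arrays. Centred on the spike-in probes, all genes shifted by a median of -1.95 and the members lay lower still. Relative to the median of all genes, a difference that no centring of whole arrays changes, the members' median was -2.29. The hepatocyte list ran from -3.69 to 2.26 in these mice, and with it as a covariate 8 members were called.

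The lower doses gave few calls at day 7. After N0.25 no member was called, against 0% of all genes called lower, while 23.6% of all genes and 0 of 9 members had an unadjusted p below 0.05 in limma. Log2 fold changes ran from -0.33 for Fcrl1 to 0.34 ± 0.23 for Spib, with adjusted p from 0.31 to 0.86. After X1, 1 member, Pou2af1, was called lower, against 0.709% of all genes, with levels of 3.23, 3.08, 3.32, 3.32 and 2.73 against 3.78 to 4.26 (median 3.95) in controls (log2 fold change -0.88 ± 0.16, limma adjusted p = 0.0097). Fcrl1, Bcl11a, Cr2 and Bank1 had log2 fold changes of -1.25 ± 0.30, -0.91 ± 0.21, -0.78 ± 0.20 and -0.36 ± 0.14 and did not overlap the controls, but were not called. Ebf1, Pou2f2 and Spib had log2 fold changes of -0.22, -0.21 and -0.23 with adjusted p of 0.52 to 0.56 in limma. With spike-in centring, which shifted all genes by medians of -1.02 after N0.25 and -0.75 after X1, 2 and 5 members were called lower at this day. Relative to the median of all genes the members' medians were only -0.14 and -0.81 on that scale. The shares above do not apply to it, so these counts are not read as a result about the members. The hepatocyte list ran from -4.54 to 4.05 in the X1 mice. With it as a covariate the members' median went from -0.77 to -0.27 and 0 members were called, with Pou2af1 at -0.78 (limma adjusted p = 0.029) and Ebf1 and Pou2f2 at -0.0018 and 0.059.

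The order of the exposures at day 1 was alike for Cr2 and Fcer2a. Mean levels of Cr2 were 2.80 ± 0.28 (SD, n = 5) in controls, 1.80 ± 1.02 (n = 6) after N0.25, 1.72 ± 0.33 (n = 6) after X1, -0.73 ± 0.64 (n = 6) after N1 and -2.75 ± 0.24 (n = 5) after X4. The N0.25 and X1 mice overlapped throughout, while the N1 mice lay between the X1 and X4 mice without overlap. At day 7 the order of Cr2 was controls 2.71 ± 0.21 (n = 6), N0.25 2.58 ± 0.25 (n = 5), X1 1.93 ± 0.39 (n = 5), N1 1.44 ± 0.78 (n = 6) and X4 -1.29 ± 0.29 (n = 6). Here N1 and X1 overlapped.

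Neutrons and x-rays were compared directly at the same labelled dose. The paper states that the neutron beam also carried γ rays. It gives the neutron dose rate per hour and the x-ray dose rate per minute, and describes sham treatment on the neutron wheel. Radiation type therefore cannot be told apart from dose rate, γ rays and handling. At day 1, N1 gave lower levels than X1 for 8 of 9 members, against 7.72% of all genes. The log2 differences were -2.45 ± 0.28 for Cr2, -2.33 for Fcer2a, -2.19 for Ebf1, -1.98 for Fcrl1 and Bcl11a, -1.72 for Spib, -1.58 for Pou2af1 and -1.46 for Bank1. Pou2f2, at -0.30, was not called. Pax5 was lower by the group filter, with a difference of -1.37 ± 0.26 (limma adjusted p = 0.0051), against 7.02% of all genes, a call that was lost with spike-in centring (-1.07) and with scan date as a block (-1.37). With scan date as a block 0 of the 9 were called, with limma adjusted p of 0.079 to 0.19 for those 8, while the differences stayed between -2.47 and -1.55. Within the 1 date that held both, 2 neutron and 4 x-ray mice differed by a median of -1.74. At day 7, 6 members were lower after N1 than after X1, against 5.67% of all genes, from -1.77 for Ebf1 to -1.07 for Bcl11a. Cr2 (-0.48), Pou2f2 (-0.38) and Fcrl1 (-1.07 ± 0.37, limma adjusted p = 0.028) were not called.

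Against X4, N1 left higher levels at day 1. Cr2 (log2 difference 2.03 ± 0.30, limma adjusted p = 0.041) and Fcer2a (2.69 ± 0.33, limma adjusted p = 0.014) were called, against 0.0552% of all genes called higher. The other 7 differed by 1.29 to 1.96 with adjusted p of 0.14 to 0.21 in limma. With normexp background correction 0 were called and the median difference was 0.41. With scan date as a block 0 were called, with a median of 1.82 and all 9 higher. That estimate rests on the 1 date that held both, with 2 N1 mice and 1 X4 mouse. At day 7, 6 members were higher after N1 than after X4. Cr2 differed by 2.74 ± 0.32, Fcer2a by 2.29 ± 0.23 and Fcrl1 by 1.41 ± 0.30, while Bank1, Pou2f2 and Pou2af1 differed by -0.18, 0.19 and 0.39 and were not called. The share of all genes called higher in that comparison was 31%. With spike-in centring all genes shifted by a median of -2.26 in it, and Fcrl1, Ebf1, Spib and Bcl11a then had the opposite sign, so their direction rests on the median scale. Leaving out X4 replicate 4 left 3 members called.

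**Figure D3:**
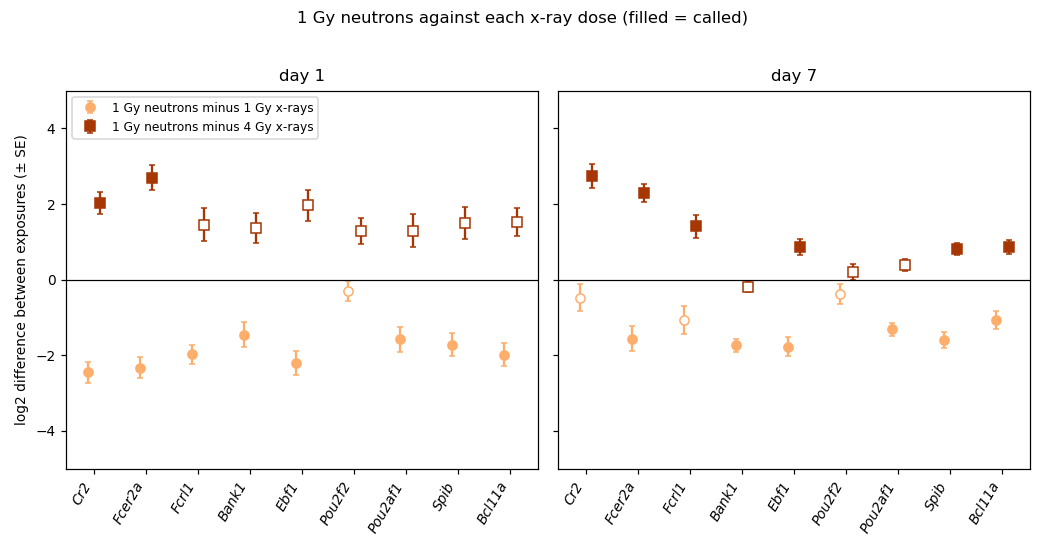
Log2 difference of 9 genes between N1 and X1 and between N1 and X4, ± SE, at days 1 and 7; filled points were called by limma. Levels after N1 were lower than after X1 and, at day 1, higher than after X4; at day 7 the difference from X4 in Fcrl1, Ebf1, Spib and Bcl11a changes sign with spike-in centring.

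Dose within a radiation type was compared in the same way. At day 1, X4 gave lower levels than X1 for all 9 members, against 13% of all genes, from -1.58 for Pou2f2 to -5.02 for Fcer2a. With scan date as a block, which rests on the 1 date that held both, with 1 X4 mouse and 4 X1 mice, 7 were called. Fcrl1 (-3.38, limma adjusted p = 0.066) and Pou2f2 (-1.95, limma adjusted p = 0.079) were not, though their differences were about as large. At day 7, 8 members were lower, against 5.54% of all genes, and Pou2f2 (-0.57 ± 0.22, limma adjusted p = 0.072) was not called. Pax5 was lower by the group filter, with a difference of -1.92 ± 0.34 (limma adjusted p = 0.0050), against 3.14% of all genes, and was not called with spike-in centring (-0.86). For neutrons, N1 gave lower levels than N0.25 for 4 members at day 1, against 0.847% of all genes. They were Fcer2a (-2.74), Cr2 (-2.52), Ebf1 (-2.17) and Bcl11a (-1.89), and all 4 calls depended on single mice. Without the N0.25 mouse that stood apart 8 were called, and without N0.25 replicate 2 or 4 or N1 replicate 6, 0 were. With scan date as a block 0 were called, with a median of -1.88 against -1.89. At day 7, 7 members were lower after N1 than after N0.25, against 9.52% of all genes, with Cr2 (-1.13 ± 0.33, limma adjusted p = 0.013) and Pou2f2 (-0.67) not called. With scan date as a block, where 1 N1 array shared a date with N0.25, Fcrl1 went from -1.98 to -0.69 (limma adjusted p = 0.097) and Cr2 to -0.23, and 6 members were called.

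Whether the effect changed between day 1 and day 7 was tested as the difference of the effects. After X4 the effect was less negative at day 7 for 6 of 9 members, against 12.4% of all genes in that direction. The change was 2.44 ± 0.36 for Ebf1, 1.98 ± 0.30 for Bank1, 1.95 ± 0.27 for Pou2f2, 1.93 ± 0.36 for Fcer2a, 1.67 ± 0.35 for Bcl11a and 1.55 ± 0.25 for Cr2 on the log2 scale. Fcrl1 (0.46 ± 0.48, limma adjusted p = 0.45), Pou2af1 (0.93 ± 0.37, limma adjusted p = 0.045) and Spib (1.28 ± 0.42, limma adjusted p = 0.017) were not called. With normexp background correction the change was called for 1 of these, Bank1, and those of the rest were 0.15 to 0.86. After N1, 1 member, Cr2, was called (2.26 ± 0.44, limma adjusted p = 0.00023), against 21.4% of all genes, and with spike-in centring, which shifted all genes by -2.45, its change was -0.18. After N0.25 and X1, 0 of the 9 were called, against 1.23% and 6.83% of all genes. Pax5, tested with the group filter, had a change of 1.33 ± 0.33 after X1 (limma adjusted p = 0.012) and was called, against 4.21% of all genes with that filter. The call was lost without any 1 of 11 of the mice, with quantile normalization, normexp or scan date as a random block, and with spike-in centring, where the change was 0.38. After N1 and X4 its change is not given, since it was above background on no array of 1 of the groups. All of these changes include any change of the controls, which were scanned on different dates at days 1 and 7. Control means at these days were 1.38 and 0.61 for Ebf1, 2.27 and 1.49 for Fcer2a, and 2.87 and 2.37 for Bank1. They were 0.97 and 0.69 for Pou2f2, 2.54 and 2.45 for Bcl11a, 2.80 and 2.71 for Cr2, and -2.09 and -2.86 for Pax5. The part of the controls was not tested.

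**Figure D4:**
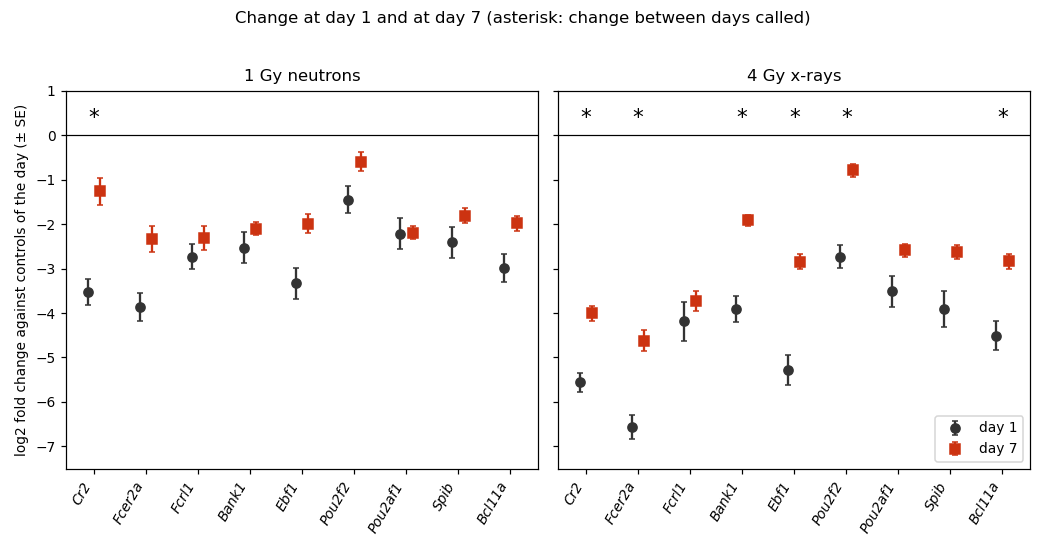
Log2 fold change of 9 genes at day 1 (dots) and day 7 (squares) after N1 and after X4, against controls of the same day. An asterisk marks a change between days called by limma. After X4 the fold changes of 6 genes moved toward 0 by day 7, and after N1 that of Cr2 did on the median scale. The change of Cr2 after N1 was -0.18 with spike-in centring. Levels of the controls also differed between the days.

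Where a member other than Pax5 had a second probe, both had the same sign in the comparisons with controls, apart from Bcl11a at day 7 after N0.25, at -0.11 and 0.28 and not called. After X4 the brightest and the other probe gave log2 fold changes of -3.90 and -3.90 for Bank1, -4.51 and -4.72 for Bcl11a, -5.56 and -4.04 for Cr2 and -2.74 and -2.90 for Pou2f2 at day 1. At day 7 they gave -1.92 and -2.03, -2.84 and -2.46, -4.00 and -3.11, and -0.79 and -0.96. The second probe of Pax5 was above background on 3 of 72 arrays and is not reported. Requiring every probe of a member that passed the filters to be called, in a fit over those probes, left the counts unchanged in the 10 comparisons with controls. In a fit over every probe that passed the group filter, 5 members instead of 6 had all probes called at day 1 after X1 and 0 instead of 2 at day 3 after N0.25, and the other 8 counts were the same.

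Across the 72 arrays the members moved together. The correlation of log2 levels between pairs of members had a median of 0.91, from 0.768 for Fcrl1 and Pou2f2 to 0.973 for Pou2af1 and Spib. These arrays share the exposure groups. With the group means taken out the median was 0.627, and the highest pair was Bank1 with Pou2af1, at 0.922. Genes taken at every 20th place of the table had medians of -0.0122 and 0.0144. Among the 5 genes whose levels were most like the members' mean standardised level over the 72 arrays (Pearson's r, as a description) were Fcmr (0.985), Bfsp2 (0.981), Fcrla (0.981) and Chst3 (0.981). Fcmr is the receptor for IgM.

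Other B cell genes were counted from lists. The shares of all genes called lower at day 1 were 18.6% after X4, 10.5% after N1 and 4.56% after X1. Those called higher were 16.5%, 6.96% and 3.09%. At day 7 the shares called lower after X4, N1 and X1 were 8.5%, 13.3% and 0.709%, and those called higher were 9.06%, 25.1% and 3.29%. Every list count below is to be read beside these shares. Of 30 further B cell surface and signalling genes tested, 25 were called lower and 1 higher at day 1 after X4, with a median log2 fold change of -3.69. Ccr6, a chemokine receptor, fell by 5.44, Vpreb3 by 5.33 and Fcmr by 5.15 on the log2 scale. At day 1, 20 were lower and 1 higher after N1, and 10 lower and 1 higher after X1. At day 7, 21 were lower after N1, 22 after X4 and 6 after X1, and none was higher. Tnfrsf13c, the receptor for the survival factor BAFF, had log2 fold changes of -2.84 after N1 and -3.54 after X4 at day 7.

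Of 20 other B cell transcription factors, 11 were lower and none higher at day 1 after both N1 and X4, with medians of -1.11 and -1.30. Bach2, which holds back plasma cell differentiation, had log2 fold changes of -3.40 after X4 and -2.24 after N1 at day 1, and Irf4 had -3.09 and -1.97. At day 7, 10 were lower and 2 higher after N1 on the median scale and 5 were lower after X4, where Bach2 had a log2 fold change of -2.19. Genes of B cell subsets followed in part, with 7 of 12 lower and 1 higher at day 1 after X4 and 5 of 12 lower after N1.

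Plasma cells share Pou2af1, and plasmacytoid dendritic cells share Spib and Bcl11a. Of 5 plasma cell genes, Mzb1 had a log2 fold change of -2.22 at day 1 after X4 and was called, while Derl3 (3.50) and Sdc1 (2.93) were called higher in those mice. Sdc1 is also made by hepatocytes, whose list was high in the same arrays, and the part of those cells in the value was not tested. Of 11 plasmacytoid dendritic cell genes, 4 were lower and 1 higher at day 1 after X4, against 18.6% and 16.5% of all genes. At day 7 after N1, 3 were higher and none lower. Of all genes 25.1% were called higher in that comparison, so this count is near the share of all genes. The genes were Tlr7 (3.85), Irf7 (1.22) and Siglech (0.78), in the mice in which Spib and Bcl11a were lower. The values of Irf7 and Siglech were smaller than the spike-in shift of -1.95 and turn negative on that scale.

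Lists of other blood cells were counted in the same way. The shares of all genes were 18.6% lower and 16.5% higher at day 1 after X4, and 10.5% and 6.96% after N1. At day 7 they were 13.3% and 25.1% after N1, and 8.5% and 9.06% after X4. Counts near these shares, as for monocyte and platelet genes, are no result about those cells. Of 16 T cell genes, 9 were lower and 1 higher at day 1 after X4 (median -1.67) and 5 were lower after N1 (median -0.90), while at day 7 4 were lower after N1 (median -0.51) and 2 were lower and 1 higher after X4 (median -0.03). Of 10 natural killer cell genes, 5 were higher at day 7 after X4 (median 0.81). Of 9 neutrophil genes, 5 were higher at day 7 after N1, with a median of 1.39 that turns negative on the spike-in scale, and 3 after X4 (median 1.24). Of 8 monocyte and 8 platelet genes, 1 monocyte gene was lower and 1 higher at day 1 after X4, and 1 of each list was higher at day 7 after N1. Of 10 erythroid genes, 10 were higher at day 7 after N1 (median 2.80), 6 after X1 and 3 after X4, and at day 1 5 were lower after X4, 5 after X1 and 2 after N1. Of the hepatocyte list 6 genes passed the filters, and 2 were higher at day 1 after X4 (median 4.21). The part of these cells in the members' falls was not tested beyond the hepatocyte settings above, which cannot separate hepatocyte level from X4 at day 1.

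**Figure D5:**
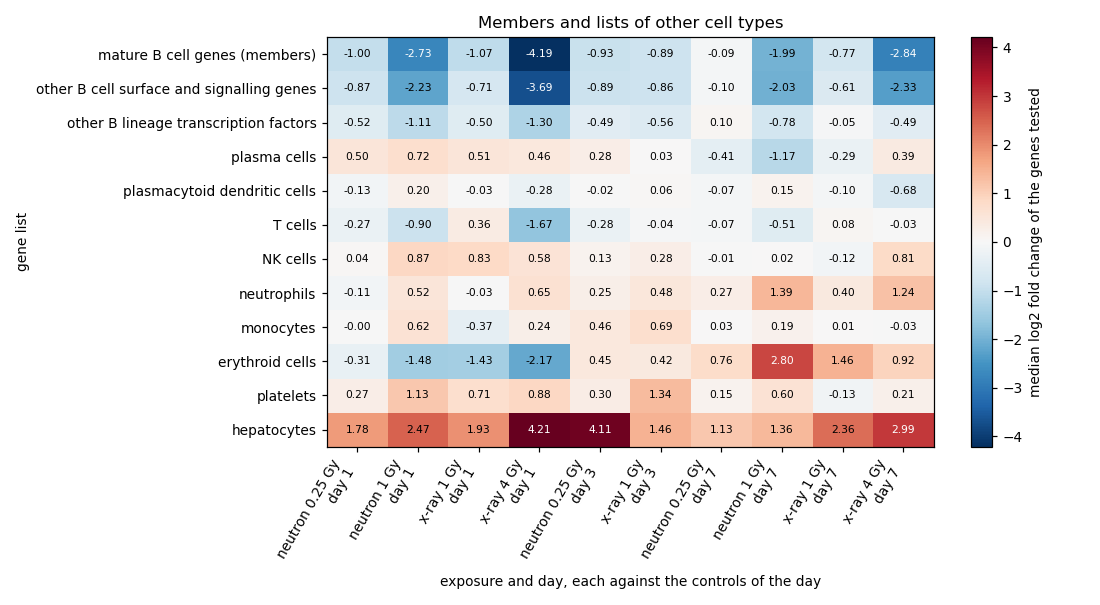
Median log2 fold change of the tested genes of each cell type list (rows) in each exposure and day against controls (columns), as a heat map. The members and the list of other B cell surface genes have their lowest medians, -4.19 and -3.69, at day 1 after X4, and the erythroid list has its highest, 2.80, at day 7 after N1.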

How the data were processed

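RNA from mouse blood was globin-reduced, labelled with Cy3 and hybridised to Agilent 1-colour arrays, 1 mouse per array. The authors extracted the scans with Feature Extraction 12.0.2, and the deposited intensity used here (the processed signal) had been background-subtracted by it. The deposited flags for signal well above background were used as given. The deposited value table of log2 values was not used, because only 2 of its 72 columns were most like the array of the same sample. No columns outside the series' samples were present.

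Intensities were put on the log2 scale and centred on the median of the detected probes of each array. Control spots were left out and spots of a probe averaged. As in the study's methods, probes flagged on 25% or more of the 56 arrays of days 1 and 7, or varying by 1.5-fold on fewer than 20% of arrays, were left out and the brightest probe per gene kept, which left 19808 detected probes, 12556 after both filters and 10863 genes. Pax5 was tested with a filter that asks for signal above background on 75% of the arrays of at least 1 group. Groups were compared with limma 3.58.1 in R 4.3.3 (moderated test, two-sided, Benjamini-Hochberg adjustment) and called at p below 0.001 and adjusted p below 0.05, each exposure against controls of its day (10 comparisons), 8 direct comparisons and 4 changes between days. The scripts were tested on simulated data. Where a probe was below background on every array of a group, the fold is a bound against the lowest signal above background. Each mouse is a separate animal. The number of arrays, not read depth, limits the precision.

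Alternatives were other centrings (75th percentile, quantile, spike-in probes), normexp with an offset of 50, other filters, scan date, slide or replicate number as a block, 1 fit over the 13 groups, a hepatocyte covariate, and leaving out each mouse. Named genes were the members, the 3 called genes of largest change in a list, and the 5 most alike genes, of which 1 is not reported here. The members and lists were chosen with earlier results of these data known, so no list is independent evidence.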

Additional observations from a re-analysis of the deposited data

Results flagged for a closer look

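In 21 of 130 sets of 1 gene in 1 group, 1 mouse lay far from the rest of its group (Dixon's test at 95%; chance gives about 6.5). In 9 of these the mouse was N0.25 replicate 5 at day 1, with log2 levels of -0.17 for Cr2, -2.40 for Fcrl1, -0.018 for Bank1, -5.22 for Pax5, -1.70 for Ebf1, -1.02 for Pou2f2, 1.17 for Pou2af1, 1.80 for Spib and -0.19 for Bcl11a, each the lowest of its group. In another 4 it was X1 replicate 1 at day 3, low in Bank1 (-0.38), Pax5 (-4.72), Pou2af1 (1.11) and Spib (2.08). At day 7, X1 replicate 5 was low in Cr2 (1.24) and Fcer2a (-0.43), N1 replicate 1 was high in Fcrl1 (-0.20) and N0.25 replicate 2 was high in Ebf1 (1.34). At day 1, X4 replicate 2 was low in Fcer2a (-5.10), X1 replicate 1 in Pou2f2 (-0.60) and control replicate 4 in Spib (3.58). At day 3, control replicate 5 was high in Pax5 (-1.60).

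The effect differed between days by the test of the difference itself in 8 cases. After X4 the log2 fold change was higher at day 7 than at day 1 by 1.55 for Cr2, 1.93 for Fcer2a, 1.98 for Bank1, 2.44 for Ebf1, 1.95 for Pou2f2 and 1.67 for Bcl11a. After N1 it was higher by 2.26 for Cr2 on the median scale, and by -0.18 with spike-in centring. After X1 it was higher by 1.33 for Pax5, tested with the filter applied within groups.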

How the results depend on the processing

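Counts are of the 9 members called in the direction given in the report. The random variance test, and the rule that every probe that passed the filters be called, gave the same counts. Spike-in centring called 1 after X1 at day 1, and 0 after N0.25 and 2 after X1 at day 3. At day 7 it called 5 after X1 and 2 after N0.25, where all genes shifted by medians of -0.75 and -1.02. It called 4 for N1 against X1, 4 against X4 and 2 against N0.25 at day 1, 4 for X4 against X1 at day 7, and 0 for N1 against X4 at day 7, where the median was -1.41 and Fcrl1, Ebf1, Spib and Bcl11a were at -0.85, -1.41, -1.44 and -1.41. For the change between days after N1 it called 0, with a median of -1.59 and Cr2 at -0.18. Normexp correction called 0 after X1 at days 1, 3 and 7 and after N0.25 at day 3. It called 3 for N1 against X1, 0 against X4 and 0 against N0.25 at day 1, 1 against X4 at day 7 (Spib at -0.013), and 2 and 1 for the change between days after N1 and X4. Quantile normalization called 5 and 0 after N0.25 and X1 at day 3, and 1 and 2 for N1 against X4 and N0.25 at day 1. The cause was not tested.

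With scan date as a fixed block the counts were 0 after N0.25 at day 3, 0 for N1 against each other exposure at day 1, and 2 against X4 at day 7. It gave 8 and 6 after N1 at days 1 and 7, 7 and 8 for X4 against X1 and 6 for N1 against N0.25 at day 7. At day 1 the contrasts of X4 with N1 and with X1 rest on 1 X4 array that shared a date. At day 7 that of N1 with X4 rests on 1 N1 array. The fixed block could not be fitted for N0.25 at days 1 and 7 or for X4 at day 7, each against controls. After X1, which shared no date with controls, scan date was a random block, which cannot separate date from exposure. The counts were then 0, 6 and 4 at days 1, 3 and 7. The estimated correlation within dates was -0.17 at day 3 and -0.059 at day 7. The SE of Fcer2a at day 3 went from 0.23 to 0.14, so no conclusion is drawn from the higher counts. Slide as a block, chosen after the data were seen, gave 0 and 2 at day 3 (N0.25, X1). For N1 at day 1 it gave 0 against X1, 9 against X4 and 8 against N0.25, and at day 7 it gave 3 against X1 and 4 for X4 against X1. One fit over the 13 groups gave 4 after N0.25 at day 1, 4 and 4 at day 3 and 0 after X1 at day 7. No variation filter gave 4 and 2 at day 3 and 2 after X1 at day 7. For N0.25 at day 3 the count was 0 with 75th percentile centring, either other detection filter, the replicate block, the hepatocyte covariate or arrays of like hepatocyte level (chosen after the data were seen). For X1 at day 3 it was 0 with either detection filter and both hepatocyte settings. The hepatocyte covariate gave 0 after X1 at day 7, and arrays of like hepatocyte level gave 2 at day 1.

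Deviations of same-numbered mice had correlations from -0.55 to 0.64, over 0.1 in 19 of 52 pairs. Mice of unlike number were not compared, so this cannot decide whether the numbers pair them, and the main tests treat the mice as unpaired. With the replicate block the counts were 8 after N1, 5 after X1 and 9 after X4 at day 1, and 7, 1 and 8 at day 7.

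Leaving out 1 mouse at a time gave 9 called after X4 at both days, 8 to 9 and 7 to 8 after N1 at days 1 and 7, and 5 to 7 after X1 at day 1. At day 3 it gave 0 to 5 after N0.25 and 0 to 2 after X1, and at day 7 1 to 2 after X1. For N1 it gave 0 to 8 against N0.25 and 0 to 2 against X4 at day 1, 3 to 6 against X4 at day 7, 4 to 6 against X1 at day 7, and 1 to 2 for the change between days. For that change after X1 it gave 0 to 2. Of the single members' called values, 624 of 778 kept their direction and call under the alternatives planned, 148 lost the call and 6 reversed.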
